A study of Mus musculus with 10 samples.

Results

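The genes followed here mark small groups of neurons. They are *Th*, *Slc6a3*, *Slc6a4*, *Tph2*, *Chat*, *Slc18a3*, *Hcrt*, *Oxt*, *Avp* and *Pmch*, measured in 10 RNA-seq libraries of sorted neuronal nuclei. They were chosen by name as markers of monoaminergic, cholinergic and hypothalamic neurons and are 10 of 54532 genes in the count files; 10 of 10 passed the filter on low counts. The study asked what loss of *Mphosph8* or *Morc2a*, 2 genes of chromatin silencing by the HUSH complex, does in the nervous system. Nuclei were released from adult C57BL/6J mouse brains, stained for the neuronal protein NeuN and sorted by flow cytometry, and their poly(A) RNA was sequenced. Control replicates 1 to 3 were *Mphosph8* fl/fl *Nestin*-Cre- and control replicates 4 and 5 were *Morc2a* fl/fl *Nestin*-Cre-. The 3 *Mphosph8*Δ/Δn libraries were *Mphosph8* fl/fl *Nestin*-Cre+, and the 2 *Morc2a*Δ/Δn libraries were *Morc2a* fl/fl *Nestin*-Cre+. In all 10 libraries exon 4 of one of the 2 genes was flanked by loxP sites, and *Nestin*-Cre removes it in neural progenitors and in the cells that come from them, glia included. No control carries *Nestin*-Cre, so the transgene and the deletion cannot be told apart. The study's methods call its replicates biological, and the labels state at least 2 brains per genotype without tying each library to a mouse, so p-values measure the spread between these libraries. Depth ran from 6686038 to 10764555 counts among the control libraries. It ran from 9475921 to 10357845 for *Mphosph8*Δ/Δn and from 9579220 to 9729647 for *Morc2a*Δ/Δn.

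The genes belong to neurons that are few in number, many of which act on cells far from their own bodies. The first step from tyrosine to dopamine is catalysed by tyrosine hydroxylase (*Th*), which all catecholamine neurons use. Dopamine is taken back up by the dopamine transporter (*Slc6a3*), which marks midbrain dopamine neurons. Serotonin neurons of the raphe nuclei make their transmitter with tryptophan hydroxylase 2 (*Tph2*) and recover it through the serotonin transporter (*Slc6a4*). Cholinergic neurons make acetylcholine with choline acetyltransferase (*Chat*) and load it into vesicles through *Slc18a3*. *Hcrt* encodes the orexin precursor of lateral hypothalamic neurons that sustain wakefulness, and *Pmch*, from neighbouring cells, the precursor of melanin-concentrating hormone. *Oxt* and *Avp* encode the precursors of oxytocin and vasopressin, which magnocellular neurons of the hypothalamus carry to the posterior pituitary.

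*Oxt* and *Avp* lie next to each other on chromosome 2, *Oxt* on the plus strand at chr2:130576173-130577054 and *Avp* on the minus strand at chr2:130580620-130582554 (GRCm38, GENCODE M21), with 3565 bases between them. Each transcript codes for the hormone first and then for its carrier, neurophysin. The start of this coding stretch is shown for both because the 2 genes share an identical run of 127 bases across exons 1 and 2, longer than a read of 50 bases. Capitals mark the run, and the 61 bases before it begin with the codons of the hormone. The *Oxt* stretch lies within chr2:130576267-130576745 and the *Avp* stretch within chr2:130581103-130582472, each with an intron between its 2 exons.
Oxt: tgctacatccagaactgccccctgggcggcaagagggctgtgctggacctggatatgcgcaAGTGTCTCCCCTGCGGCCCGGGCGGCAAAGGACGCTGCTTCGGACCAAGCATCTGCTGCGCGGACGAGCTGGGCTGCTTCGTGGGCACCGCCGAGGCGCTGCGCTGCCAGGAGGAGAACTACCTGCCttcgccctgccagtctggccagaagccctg
Avp: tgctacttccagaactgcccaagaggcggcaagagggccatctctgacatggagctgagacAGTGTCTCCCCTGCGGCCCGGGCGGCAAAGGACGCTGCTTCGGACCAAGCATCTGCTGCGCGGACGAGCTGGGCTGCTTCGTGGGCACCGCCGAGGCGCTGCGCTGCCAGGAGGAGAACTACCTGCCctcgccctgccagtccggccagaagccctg

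Of the distinct 50-base stretches of each gene's transcripts, 78 of 488 in *Oxt* (16.0%) and 78 of 528 in *Avp* (14.8%) occur in both, and a read from there has no unique origin. The remaining stretches of these genes were found in no other annotated transcript. *Pmch* (chr10:88091072-88092375, plus strand) shares 435 of its 749 exonic bases (58.1%) with *Parpbp* on the opposite strand. The strand setting of the counting is not given in the sources used here, and *Parpbp* held 31 counts over all 10 libraries against 309 for *Pmch*, so the level of *Pmch* is uncertain. *Slc18a3* (chr14:32462438-32464850, minus strand) is a gene of 1 exon inside the span of *Chat* (chr14:32408203-32465989, minus strand), with 0 exonic bases in common. The other genes had no shared exonic base, with *Th* at chr7:142892752-142931128, *Tph2* at chr10:115078641-115185022 and *Hcrt* at chr11:100761069-100762931 on the minus strand, and *Slc6a3* at chr13:73536747-73578672 and *Slc6a4* at chr11:76998603-77032340 on the plus strand.

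The sort and the libraries were examined first. *Rbfox3*, which encodes NeuN, had 1010 to 3146 counts, and *Snap25*, a synaptic protein and the most abundant of 8 genes of neurons in general, had a mean of 1757 CPM, the count scaled to the size of the library. *Snap25* was lower in the knockouts, with 1805 to 1996 CPM in control, 1731 to 1758 in *Mphosph8*Δ/Δn and 1376 and 1381 in *Morc2a*Δ/Δn, and did not pass the test in either (log2 fold change -0.14, edgeR adjusted p = 0.919, and -0.47, edgeR adjusted p = 0.0528). The 8 genes together had 4397 to 5073 CPM in control, 4471 to 4746 in *Mphosph8*Δ/Δn and 4092 and 3505 in *Morc2a*Δ/Δn, the latter both below every control. In *Morc2a*Δ/Δn 5 of the 8 were lower and 3 higher. The higher ones were *Rbfox3* (mean 265 CPM against 232 in control), *Map2* (590 against 470) and *Nefm* (53.7 against 52.5). RNA of glia was present as well, since the myelin gene *Mbp* had 2931 to 6310 counts and the astrocyte gene *Slc1a2* 3192 to 4855 counts, while the microglial gene *Csf1r* and the endothelial gene *Kdr* had means of 14.3 and 2.38 CPM. The markers of the labelled cell type were thus present, alongside RNA of glia.

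The targeted genes were not lower in every knockout library. *Mphosph8* had 37.2, 36.0 and 18.8 CPM in the *Mphosph8*Δ/Δn libraries against 32.2 to 49.0 CPM in the control libraries, with a log2 fold change of -0.34 ± 0.23 (SE, edgeR adjusted p = 0.967). *Morc2a* had 215 and 223 CPM in the *Morc2a*Δ/Δn libraries, above the 122 to 163 CPM of the control libraries (log2 fold change 0.64 ± 0.14, SE, edgeR adjusted p = 0.0916). Per the paper, loss of exon 4 puts the transcript out of frame and exposes it to decay, yet the *Morc2a* sums were not lower. The paper reports loss of both genes by quantitative PCR and immunoblots of whole brains. It also measured the mRNA of both genes by quantitative PCR in sorted NeuN+ nuclei of controls and both knockouts, in a supplementary figure whose values its text does not give. Counts here were summed over the whole gene and exon 4 was not counted apart, so that these sums do not check the deletion.

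Libraries of a group differed in genes of single brain regions and of the pituitary. Summed over 8 genes of cerebellar granule cells, control replicate 4 had 561 CPM and *Mphosph8*Δ/Δn replicates 1 and 2 had 328 and 468 CPM, while the other 7 libraries had 96.9 to 172 CPM. *Cbln3*, a granule cell gene, had 1513, 660 and 956 counts in these 3 libraries and at most 74 elsewhere. Summed over 9 pituitary genes, *Mphosph8*Δ/Δn replicate 2 had 139 CPM, *Morc2a*Δ/Δn replicate 1 had 15.8 CPM and the others 1.50 to 5.34 CPM. In *Mphosph8*Δ/Δn replicate 2 the growth hormone gene *Gh* had 1116 counts, *Prl* 183, *Cga* 73 and *Pomc* 1680, and *Prl* had at most 7 and *Cga* 0 counts in every other library. Because the hypothalamus is attached to the pituitary, these sums are drawn beside the sum of the 4 hypothalamic neuropeptides, which was highest in *Mphosph8*Δ/Δn replicate 3 (65.4 CPM) and lowest in *Mphosph8*Δ/Δn replicate 1 (34.9 CPM). Without *Mphosph8*Δ/Δn replicate 2, the library of the highest pituitary sum, 0 of the 10 genes followed here were called, and *Hcrt* and *Oxt* in that knockout had log2 fold changes of -0.98 and 0.63 (edgeR adjusted p = 0.884 and 0.930). Leaving out the 3 granule-rich libraries keeps *Mphosph8*Δ/Δn replicate 3 as the only library of its group, so those values set a lone library, assumed to vary like the other groups, against 4 controls and are no check of the 3-library difference. Beyond these settings the part of granule cell or pituitary RNA in the results was not tested.

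**Figure D1:**
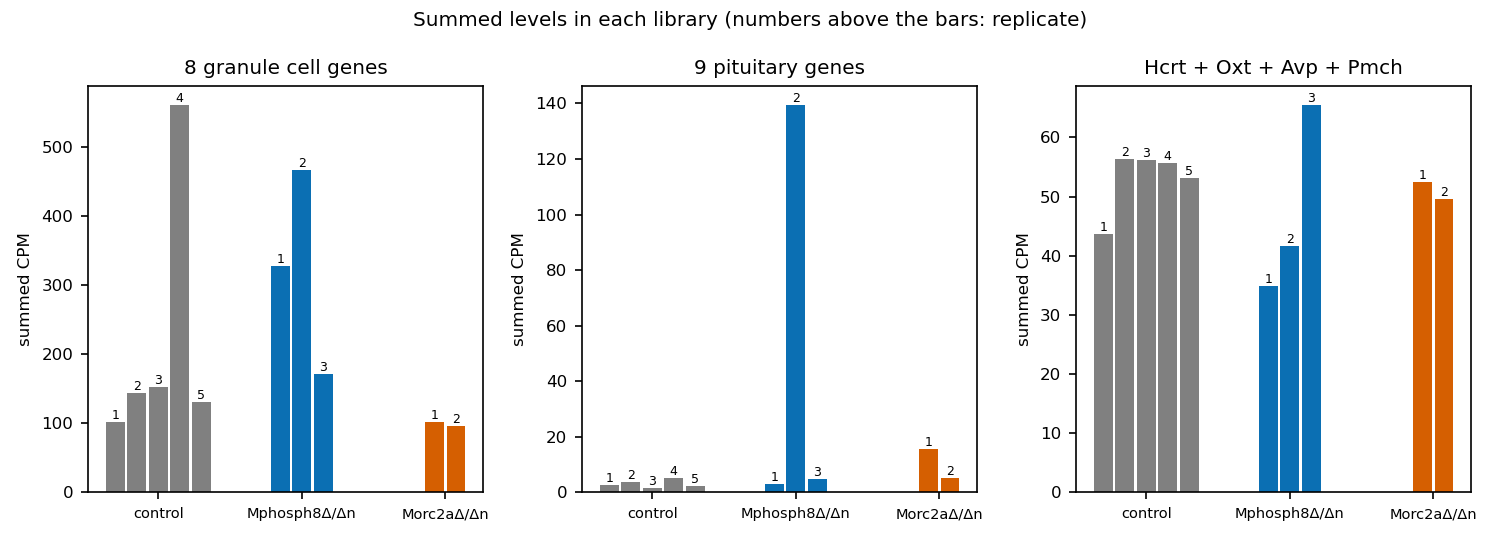
Summed CPM in each library for 8 cerebellar granule cell genes, 9 pituitary genes and the 4 hypothalamic neuropeptide genes, with the groups along the x axis and the replicate number above each bar. Granule cell genes were high in control replicate 4 and *Mphosph8*Δ/Δn replicates 1 and 2, pituitary genes in *Mphosph8*Δ/Δn replicate 2, and the neuropeptides in *Mphosph8*Δ/Δn replicate 3.

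Levels per length, in RPKM (CPM for each kilobase of exon), spanned more than 2 orders of magnitude. In the control libraries *Avp* had the highest level (44.8 ± 4.56 RPKM, SD, n = 5), followed by *Th* (26.0 ± 8.09), *Oxt* (20.2 ± 5.88) and *Hcrt* (18.1 ± 2.20). *Slc6a3* (3.91 ± 1.36 RPKM) and *Pmch* (3.75 ± 0.985 RPKM) formed the middle of the order. *Tph2* (1.34 ± 0.549 RPKM), *Slc18a3* (0.632 ± 0.470 RPKM), *Slc6a4* (0.605 ± 0.228 RPKM) and *Chat* (0.175 ± 0.148 RPKM) were lowest. Neighbours in this order had control ranges that did not overlap at 3 places, between *Avp* and *Th*, *Hcrt* and *Slc6a3*, and *Pmch* and *Tph2*, and overlapped at the other 6. *Hcrt* was above *Slc6a3*, and *Pmch* above *Tph2*, in 10 of 10 libraries, whereas *Avp* was above *Th* in 9 of 10. By mean RPKM over all libraries *Avp* exceeded 93.8% of the 18573 genes tested, *Th* 87.8%, *Oxt* 85.0% and *Hcrt* 78.3%, while *Chat* exceeded 5.01%.

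**Figure D2:**
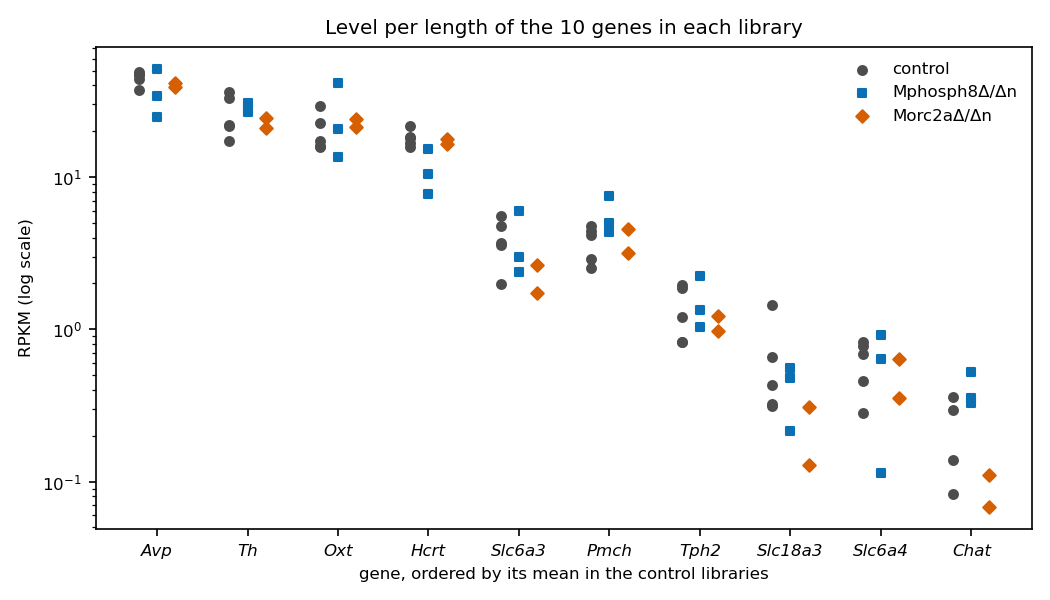
Level per length (RPKM, log scale) of each gene in each library, with genes ordered by their control mean and a point per library (circles, control; squares, *Mphosph8*Δ/Δn; diamonds, *Morc2a*Δ/Δn). *Avp*, *Th*, *Oxt* and *Hcrt* stand above the other 6 genes, and the control library with 0 counts of *Chat* has no point on the log scale.

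None of the 10 genes passed the test in either knockout. Against all controls, edgeR called 0 of 10 (adjusted p below 0.05 and fold above 2) in *Mphosph8*Δ/Δn, where it called 18 of all 18573 genes, or 0.0969%. It called 0 of 10 in *Morc2a*Δ/Δn against 11 of all genes, or 0.0592%. At an unadjusted p below 0.05 there was 1 of the 10 in *Mphosph8*Δ/Δn, which was *Hcrt*, against 5.67% of all genes, and 0 of the 10 in *Morc2a*Δ/Δn against 10.7%. No member had every library of *Mphosph8*Δ/Δn (2.31% of all genes) or of *Morc2a*Δ/Δn (7.59%) above every control. limma-voom also called 0 of 10 in both, and DESeq2 called 0 of 10 in *Mphosph8*Δ/Δn, with the same 1 and 0 at an unadjusted p below 0.05. For *Morc2a*Δ/Δn DESeq2 gave an adjusted p to *Th* and *Avp* alone, called neither, and could not call the other 8. The counts at an unadjusted p below 0.05 depended on single libraries and on the filter, since in *Mphosph8*Δ/Δn edgeR gave 0 of 10 without the filter, without control replicate 3 and without *Mphosph8*Δ/Δn replicate 1, and in *Morc2a*Δ/Δn 1 of 10 without the filter and without control replicate 2. Across the 10 genes the median log2 fold change was 0.04 for *Mphosph8*Δ/Δn and -0.23 for *Morc2a*Δ/Δn, against -0.01 over all genes in both. In *Mphosph8*Δ/Δn 5 of the 10 were higher and 5 lower, and in *Morc2a*Δ/Δn 2 were higher and 8 lower. The part of the low sum of genes of neurons in general in *Morc2a*Δ/Δn, given above, was not tested. The 2 comparisons share their control libraries. A difference of 2-fold lay outside the 95% interval in both directions for *Th*, *Slc6a3* and *Avp* in *Mphosph8*Δ/Δn and for *Th*, *Hcrt* and *Avp* in *Morc2a*Δ/Δn, and for the other 7 genes in each knockout it did not. In such bulk RNA, fewer cells of a type and less RNA per cell cannot be told apart.

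**Figure D3:**
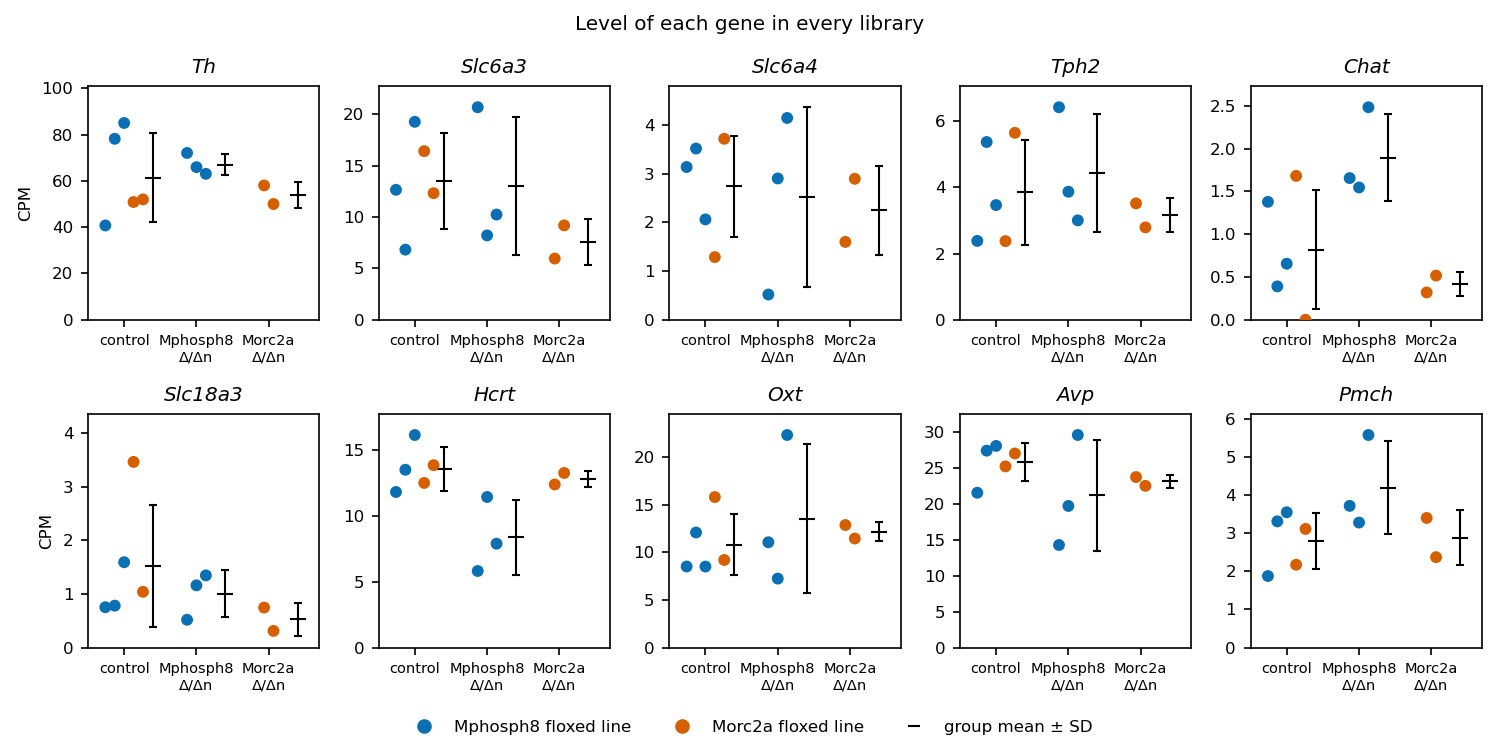
Level of each gene in CPM, with 1 point per library coloured by floxed line and, beside the points, the mean ± SD of the group (5 control, 3 *Mphosph8*Δ/Δn, 2 *Morc2a*Δ/Δn). Groups overlap in every panel except *Hcrt* in *Mphosph8*Δ/Δn and *Slc18a3* in *Morc2a*Δ/Δn, which lie below every control.

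*Th* had 40.7, 78.2, 85.0, 50.9 and 52.0 CPM in control replicates 1 to 5. It had 72.0, 65.9 and 63.0 CPM in *Mphosph8*Δ/Δn and 58.0 and 50.0 CPM in *Morc2a*Δ/Δn. All knockout values fell inside the control range, whose width came from the *Mphosph8* floxed line. *Mphosph8* loss gave a log2 fold change of 0.12 ± 0.21 (SE, 95% interval -0.32 to 0.57, edgeR adjusted p = 0.997). *Morc2a* loss gave -0.19 ± 0.24 (95% interval -0.70 to 0.33, edgeR adjusted p = 0.849). With 325 to 908 counts *Th* was the best counted of the 10, and its coefficient of variation among controls, 31.2%, was well over the 4.15% that counting error alone would give.

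*Slc6a3* had 12.7, 6.83, 19.3, 16.4 and 12.3 CPM in the control libraries. The *Mphosph8*Δ/Δn libraries had 20.7, 8.22 and 10.2 CPM, replicate 1 being above every control. Both *Morc2a*Δ/Δn libraries, with 5.96 and 9.19 CPM, were at the low end of the controls and overlapped them only through control replicate 2. The log2 fold change was -0.05 ± 0.37 (95% interval -0.82 to 0.72, edgeR adjusted p = 0.999) in *Mphosph8*Δ/Δn and -0.83 ± 0.44 (95% interval -1.77 to 0.10, edgeR adjusted p = 0.529) in *Morc2a*Δ/Δn. With only the 2 controls of the *Morc2a* line the second was -0.93 (edgeR adjusted p = 0.633). *Th* and *Slc6a3*, although both serve dopamine neurons, did not move together over the 10 libraries (Pearson's r = 0.08, Spearman's rho = 0.05).

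The neighbours of these genes in the pathway were read from 3 genes named with their values known. *Ddc*, which turns the product of tyrosine hydroxylase into dopamine and also makes serotonin, had a mean of 9.90 CPM in control, 10.5 after loss of *Mphosph8* and 4.64 after loss of *Morc2a* (log2 fold change -1.09 for the latter, edgeR adjusted p = 0.462). *Slc18a2*, the vesicular transporter of monoamines, had 25.5, 30.8 and 27.1 CPM in the same order. *Dbh*, which turns dopamine into noradrenaline, had 0 to 39 counts and was highest in *Mphosph8*Δ/Δn replicate 2. Over the 19 genes of catecholamine neurons, 17 were tested and 0 were called in either knockout. With loss of *Mphosph8* 8 were higher and 9 lower (median log2 fold change -0.17), and 3 had an unadjusted p below 0.05, against 5.67% of all genes. With loss of *Morc2a* 5 were higher and 12 lower (median -0.75), and 4 had an unadjusted p below 0.05, against 10.7% of all genes. The summed list had 220 and 204 CPM in the *Morc2a*Δ/Δn libraries, below the 231 to 308 CPM of control. In the same libraries the sum of the 8 genes of neurons in general was low, although 3 of the 8 were higher, as given above. The part of this in the catecholamine genes and in the lists below was not tested.

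The serotonin genes were thinly counted. *Tph2* had 19 to 55 counts in control, 29 to 62 with *Mphosph8* deleted and 27 to 33 with *Morc2a* deleted, which corresponds to means of 3.85 ± 1.58, 4.43 ± 1.78 and 3.15 ± 0.513 CPM (SD, n = 5, 3 and 2). Its log2 fold change was 0.21 ± 0.50 (95% interval -0.86 to 1.27) in *Mphosph8*Δ/Δn and -0.28 ± 0.59 (95% interval -1.53 to 0.96) in *Morc2a*Δ/Δn. *Slc6a4* had 13 to 36 counts in control and 15 and 28 in *Morc2a*Δ/Δn. The *Mphosph8*Δ/Δn libraries had 5, 30 and 40 counts of it, so that replicate 1 lay below every control and replicate 3 above every control. Its log2 fold change was -0.12 ± 0.69 (95% interval -1.58 to 1.34) in *Mphosph8*Δ/Δn and -0.28 ± 0.80 (95% interval -1.98 to 1.41) in *Morc2a*Δ/Δn.

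*Fev*, a transcription factor that defines serotonin neurons and is named here with its values known, had 0 counts in 6 of 10 libraries and at most 8. Of the 8 further serotonin genes on the list, *Fev* among them, 7 were tested (without *Fev*) and 0 were called in either knockout. Their median log2 fold change was -0.01 in both, with 3 higher and 4 lower in each, and 2 of 7 after *Mphosph8* and 0 of 7 after *Morc2a* loss had an unadjusted p below 0.05, against 5.67% and 10.7% of all genes. The receptor gene *Htr1b* was the most abundant of them at 13.4 CPM.

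The cholinergic genes had the fewest counts and, in control, the largest relative spread of the 10 (coefficient of variation 84.8% for *Chat* and 74.4% for *Slc18a3*). In *Mphosph8*Δ/Δn it was larger for *Slc6a4* (73.1%) than for either of them (27.0% and 43.1%). *Chat* had 11, 4, 7, 17 and 0 counts in control replicates 1 to 5, where 0 counts allow up to 0.446 CPM. It had 16, 16 and 24 counts in *Mphosph8*Δ/Δn and 3 and 5 counts in *Morc2a*Δ/Δn. On the CPM scale *Mphosph8*Δ/Δn (1.55 to 2.48) was above all controls but replicate 4 (1.68), which exceeded 2 of the 3 knockout libraries, and *Morc2a*Δ/Δn (0.319 and 0.517) was within the control range. Its log2 fold changes for *Mphosph8* and *Morc2a* loss were 1.18 ± 1.05 (95% interval -1.01 to 3.40, edgeR adjusted p = 0.987) and -0.96 ± 1.35 (95% interval -3.82 to 1.85, edgeR adjusted p = 0.861). Without the granule-rich libraries the first rested on replicate 3 alone, with its 24 counts, and was 1.99 (edgeR adjusted p = 0.726).

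*Slc18a3* had 6, 8, 17, 35 and 7 counts in the control libraries, or 0.752, 0.781, 1.59, 3.46 and 1.04 CPM. The *Mphosph8*Δ/Δn libraries had 0.518, 1.16 and 1.35 CPM. The *Morc2a*Δ/Δn libraries had 7 and 3 counts, or 0.745 and 0.310 CPM, and both libraries lay below every control, the higher of them by less than a single count. Of all genes tested, 7.8% had both *Morc2a*Δ/Δn libraries below every control. The resulting log2 fold change was -1.52 ± 1.20 (95% interval -4.07 to 0.99, edgeR adjusted p = 0.712) for *Morc2a*Δ/Δn. It moved between -2.25 (without *Morc2a*Δ/Δn replicate 1) and -0.97 (without control replicate 4) with single libraries left out, and was -2.08 with the controls of the *Morc2a* line. With a replicate block, which leaves this comparison only controls of the *Mphosph8* line, it was -0.59. For *Mphosph8*Δ/Δn it was -0.60 ± 0.97 (95% interval -2.64 to 1.43, edgeR adjusted p = 0.997), a value that rested on control replicate 4 of the other line. It was -0.044 without that library, -0.051 with the controls of the *Mphosph8* line, -0.0027 with a replicate block and 0.35 for replicate 3 alone without the granule-rich libraries. Over the 10 libraries *Chat* and *Slc18a3* had a Pearson's r of 0.27 and a Spearman's rho of 0.39.

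Of 9 other cholinergic genes 7 were tested and 0 were called. After loss of *Mphosph8* 3 were higher and 4 lower (median log2 fold change -0.10), with 0 at an unadjusted p below 0.05 against 5.67% of all genes. After loss of *Morc2a* 2 were higher and 5 lower (median -0.50), with 1 of 7 at an unadjusted p below 0.05 against 10.7%. *Slc5a7*, the choline transporter of these neurons and named with its values known, had 18 to 48 counts in control, 60, 65 and 88 without *Mphosph8* and 31 and 56 without *Morc2a*. On the CPM scale these were 1.76 to 5.64, 5.80 to 9.11, and 3.20 and 5.96. All *Mphosph8*Δ/Δn libraries were thus above every control, the lowest of them by little, as in 2.31% of all genes. The difference did not pass the test (log2 fold change 0.80, edgeR adjusted p = 0.919). *Ache*, which breaks acetylcholine down and is made by many other neurons, was the most abundant at 222 CPM.

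Among the hypothalamic genes *Hcrt* stood apart in *Mphosph8*Δ/Δn. It had 11.8, 13.5, 16.1, 12.5 and 13.8 CPM in control replicates 1 to 5, the narrowest relative spread of the 10 genes in control after that of *Avp*. The *Mphosph8*Δ/Δn libraries had 5.80, 11.4 and 7.87 CPM of *Hcrt*, and the other knockout had 12.4 and 13.2 CPM. All 3 *Mphosph8*Δ/Δn libraries were below every control, as in 2.26% of all genes, although replicate 2 missed the lowest control by little, and both *Morc2a*Δ/Δn libraries were inside the control range. Its mean was 8.36 ± 2.84 CPM (SD, n = 3) against 13.5 ± 1.65 CPM (SD, n = 5), a fitted fold of 0.618 (95% interval 0.405 to 0.944).

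On the log2 scale this difference of *Hcrt* was -0.69 ± 0.29 (SE, 95% interval -1.31 to -0.08). Its p in the edgeR fit across all genes was 0.0283 before and 0.830 after adjustment, so it did not pass. Over all alternatives the adjusted p lay between 0.620 and 0.979. Against the 3 controls of the same floxed line it was -0.72 (edgeR adjusted p = 0.875). With each library left out in turn it was -0.98 to -0.49. Replicate 3 alone, without the 3 granule-rich libraries, gave -0.82 (edgeR adjusted p = 0.620). For *Morc2a*Δ/Δn the log2 fold change of *Hcrt* was -0.08 ± 0.32 (95% interval -0.76 to 0.60, edgeR adjusted p = 0.958). The effect of *Morc2a* loss minus that of *Mphosph8* loss on *Hcrt*, each from its own line's controls, was 0.68 ± 0.51 on the log2 scale (edgeR adjusted p = 0.776). Markers of 2 regions also set all 3 *Mphosph8*Δ/Δn libraries apart from every control. The summed striatal genes had 1463, 1804 and 1844 CPM in this knockout against 2059 to 2261 in control, and the summed midbrain and hindbrain genes 64.9, 60.9 and 48.6 CPM against 33.3 to 44.9. The part of these region differences in the level of *Hcrt* was not tested.

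*Avp* had 21.6, 27.4, 28.1, 25.2 and 27.0 CPM in the control libraries. The *Mphosph8*Δ/Δn libraries had 14.3, 19.7 and 29.6 CPM, so that replicates 1 and 2 were below and replicate 3 above every control. The *Morc2a*Δ/Δn libraries had 23.7 and 22.5 CPM, inside the control range. The fit gave log2 fold changes of -0.29 ± 0.24 (95% interval -0.79 to 0.21, edgeR adjusted p = 0.985) and -0.16 ± 0.27 (95% interval -0.73 to 0.41, edgeR adjusted p = 0.895).

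*Oxt* had 8.52, 12.1, 8.52, 15.8 and 9.21 CPM in control replicates 1 to 5. Loss of *Mphosph8* went with 11.1, 7.25 and 22.4 CPM, with replicate 2 lower and replicate 3 higher than every control, and loss of *Morc2a* with 12.9 and 11.5 CPM, inside the control range. The log2 fold change was 0.32 ± 0.35 (95% interval -0.42 to 1.06, edgeR adjusted p = 0.997) in *Mphosph8*Δ/Δn, where it was -0.24 without replicate 3 and, for replicate 3 alone without the granule-rich libraries, 1.21 (edgeR adjusted p = 0.380), and 0.17 ± 0.40 (95% interval -0.68 to 1.01, edgeR adjusted p = 0.932) in *Morc2a*Δ/Δn. The quotient of *Avp* over *Oxt* CPM was 1.29 to 3.30 over the 10 libraries and above 1 in each of them. The 127-base run shown in capitals above is common to both transcripts, so each of the 2 levels depends on how the authors treated reads with more than 1 origin.

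*Pmch* had 15 to 38 counts in the control libraries, 34, 36 and 54 without *Mphosph8* and 23 and 32 without *Morc2a*. Its means were 2.81 ± 0.738, 4.20 ± 1.22 and 2.89 ± 0.729 CPM, and only *Mphosph8*Δ/Δn replicates 1 and 3 were above every control. *Mphosph8* and *Morc2a* loss gave log2 fold changes of 0.58 ± 0.51 (95% interval -0.50 to 1.65, edgeR adjusted p = 0.987) and 0.04 ± 0.60 (95% interval -1.22 to 1.29, edgeR adjusted p = 0.990). The 4 neuropeptide genes in *Mphosph8*Δ/Δn had estimates on both sides of 0, *Hcrt* and *Avp* below and *Oxt* and *Pmch* above, and none passed the test. The side depended on replicate 3 for *Oxt*, as given above, and *Avp* was at 0.17 with replicate 3 as the only *Mphosph8*Δ/Δn library.

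**Figure D4:**
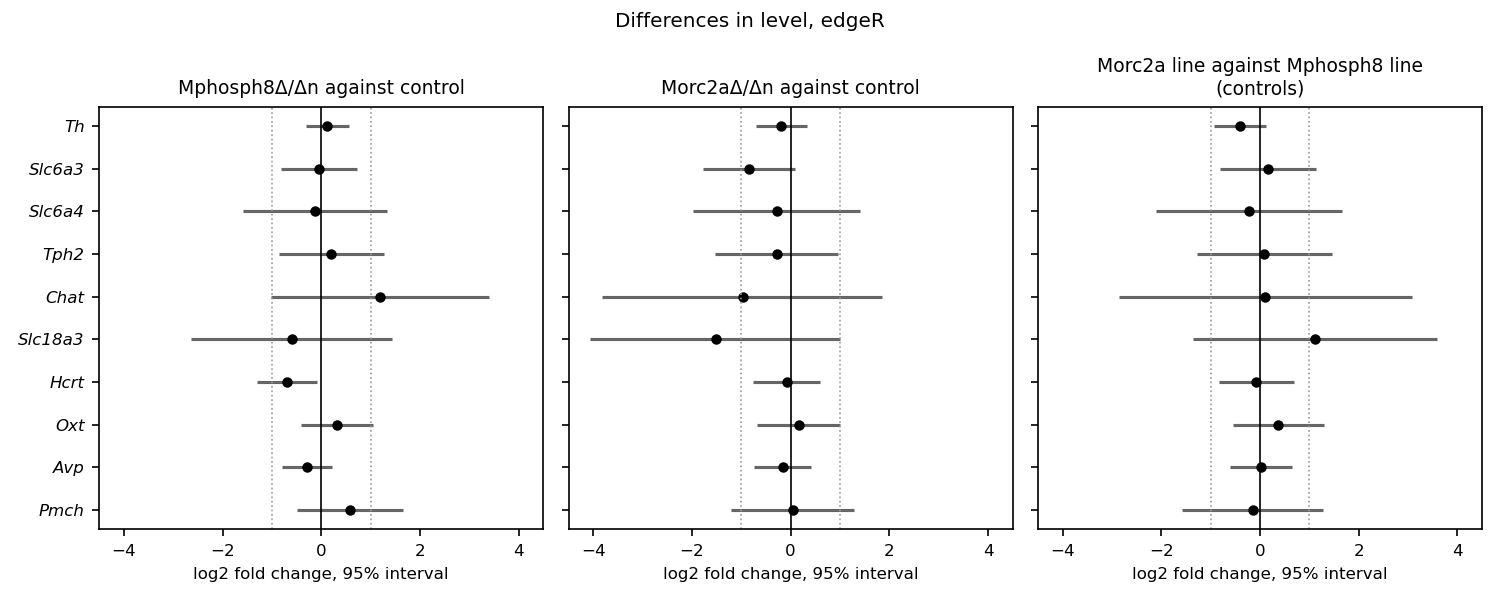
Log2 fold change of each gene with its 95% interval (edgeR), for *Mphosph8*Δ/Δn against all controls (left), *Morc2a*Δ/Δn against all controls (middle), and controls of the *Morc2a* line against those of the *Mphosph8* line (right), with dotted lines at 2-fold. The interval of *Hcrt* in *Mphosph8*Δ/Δn (-1.31 to -0.08) is the only one of the 30 that leaves out 0.

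Of 20 other hypothalamic neuropeptide genes 18 were tested, 1 had 0 counts in all libraries and 0 were called in either knockout. Without *Mphosph8* 9 were higher and 9 lower (median log2 fold change 0.02), and 1 of 18 had an unadjusted p below 0.05, against 5.67% of all genes. This was *Pomc*, which the pituitary also makes (log2 fold change 2.96, edgeR adjusted p = 0.288), with 1680 counts in replicate 2, the library of the highest pituitary sum, against 131 and 101 in replicates 1 and 3. Without *Morc2a* 4 were higher and 14 lower (median -0.49), with 4 of the 18 below 0.05 against 10.7% of all genes. The summed list had 443 and 307 CPM in these libraries, below the 452 to 582 CPM of control. The sum of the 8 genes of neurons in general was also low there, although 3 of the 8 were higher. *Npy*, an appetite peptide that cortical interneurons also make, was the most abundant at 171 CPM. Of 17 hypothalamic transcription factors 10 were tested, 0 were called and 0 had an unadjusted p below 0.05 in either knockout, and their median log2 fold change was 0.10 without *Mphosph8* and 0.04 without *Morc2a*. *Pou3f2*, a factor that neurons outside the hypothalamus also make, was the most abundant at 40.5 CPM. *Sim1* and *Otp*, which specify the *Oxt* and *Avp* neurons and are named with their values known, had at most 17 and 25 counts and were at 0 in 3 and 1 of the 10 libraries.

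The receptors of these transmitters sit on other, more numerous neurons. Of 26 receptor genes 25 were tested and 0 were called in either knockout. Without *Mphosph8* 12 were higher and 13 lower (median log2 fold change -0.04) and 1 had an unadjusted p below 0.05 against 5.67% of all genes, and without *Morc2a* 6 were higher and 19 lower (median -0.24) with 7 below 0.05 against 10.7% of all genes. The muscarinic receptor *Chrm1* was the most abundant at 126 CPM. The receptors of the hypothalamic peptides, named with their values known, were likewise not called. The orexin receptor genes *Hcrtr1* and *Hcrtr2* had 17.9 and 6.63 CPM in control, 21.5 and 7.55 without *Mphosph8* and 33.1 and 2.88 without *Morc2a*, with log2 fold changes in the latter of 0.89 (edgeR adjusted p = 0.350) and -1.20 (edgeR adjusted p = 0.389). The oxytocin receptor gene *Oxtr* had 12.5, 16.5 and 16.9 CPM, and *Mchr1*, the receptor of melanin-concentrating hormone, had 50.3, 49.0 and 43.9 CPM.

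The controls of both floxed lines were compared because they carry no deletion. Between 2 control libraries of the *Morc2a* line and 3 of the *Mphosph8* line edgeR called 0 of the 10 genes, against 0.129% of all genes, and 0 of the 10 had an unadjusted p below 0.05, against 9.21% of all. In none of the 10 did all libraries of the *Morc2a* line lie above those of the *Mphosph8* line (14.1% of all genes) or below them (15.1%). The log2 differences ran from -0.41 for *Th* (51.4 ± 0.797 against 68.0 ± 23.8 CPM, edgeR adjusted p = 0.661) to 1.11 for *Slc18a3* (2.25 ± 1.71 against 1.04 ± 0.476 CPM, edgeR adjusted p = 0.835). For *Th*, *Slc6a3*, *Slc6a4*, *Slc18a3*, *Oxt* and *Pmch* these differences were larger in size than the difference from all controls in at least 1 of the knockouts. Whether the effects of the knockouts differed was tested for each gene against the controls of its line. edgeR called 0 of 10 genes, against 0.0% of all genes, with 0 of the 10 at an unadjusted p below 0.05 against 7.95% of all, and DESeq2 also called 0 of 10. The estimates ranged from -2.25 for *Chat* to 0.68 for *Hcrt*.

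Markers of regions and of other cells gave the setting of these values. No gene of the habenula (5 tested), olfactory bulb (5), midbrain and hindbrain (8), cerebral cortex (8), striatum (6), cerebellar granule cells (7) or neurons in general (8) was called in either knockout. The most abundant were *Nwd2* (99.3 CPM), *Cdhr1* (51.0), *Slc6a5* (24.0), *Foxp2* (88.4), *Penk* (854), *Cbln1* (39.2) and *Snap25* (1757). Without *Mphosph8* the medians of these lists were -0.31, 0.06, 0.67, -0.05, -0.24, 0.56 and 0.02 on the log2 scale, and without *Morc2a* 0.03, -0.42, -0.65, -0.23, -0.27, -0.83 and -0.34. At an unadjusted p below 0.05 there were 0, 0, 2, 1, 1, 0 and 1 of them without *Mphosph8* (5.67% of all genes) and 1, 1, 0, 1, 2, 3 and 5 without *Morc2a* (10.7% of all genes), the last being 5 of 8 genes of neurons in general. Of the genes of neurons in general 3 were higher and 5 lower without *Morc2a*. *Map2*, among the 5 below 0.05, was higher (log2 fold change 0.33). Of the granule cell genes 7 of 7 were higher without *Mphosph8* and 7 of 7 lower without *Morc2a*, and the 3 libraries named above lie in the first of these groups and in the controls. Of the striatal genes 0 of 6 were higher and 6 lower without *Mphosph8*, and 1 was higher and 5 lower without *Morc2a*, where their sum (1944 and 1541 CPM) was also below every control. Of the midbrain and hindbrain genes 6 were higher and 2 lower without *Mphosph8*, and 2 higher and 6 lower without *Morc2a*.

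Outside neurons, 0 of 7 astrocyte, 7 oligodendrocyte, 6 microglial, 5 endothelial, 6 choroid plexus and 6 ependymal genes tested were called in either knockout. Their most abundant genes were *Slc1a2* (412 CPM), *Mbp* (487), *Csf1r* (14.3), *Kdr* (2.38), *Enpp2* (124) and *Col25a1* (78.3). The list medians without *Mphosph8* were -0.05, 0.11, -0.41, 0.50, -0.55 and 0.67 on the log2 scale, and without *Morc2a* -0.06, -0.22, -0.67, 0.01, -0.94 and -0.33. In the same order 1, 1, 0, 0, 2 and 1 had an unadjusted p below 0.05 without *Mphosph8*, and 1, 2, 0, 1, 1 and 1 without *Morc2a*, against 5.67% and 10.7% of all genes. All tested genes of a list had fold changes of the same sign for choroid plexus (0 of 6 higher in both knockouts) and, without *Mphosph8*, for microglia (0 of 6 higher) and endothelium (5 of 5 higher). Both *Morc2a*Δ/Δn libraries were below every control in the summed genes of oligodendrocytes (678 and 549 against 743 to 974 CPM) and of choroid plexus (196 and 194 against 205 to 288 CPM). Of 9 pituitary genes 4 were tested, and *Gh* was the 1 gene of all these lists that was called. It had 16, 1116 and 38 counts without *Mphosph8* and 35 and 26 without *Morc2a* against 0 to 2 in control, and rose in the former (log2 fold change 8.54, edgeR adjusted p = 0.00494). The call rested on replicate 2, without which the log2 fold change was 4.72 (edgeR adjusted p = 0.323), a value computed for this gene after its counts were seen. Without *Morc2a* it was 4.98 (edgeR adjusted p = 0.196).

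Genes made by the same or neighbouring neurons were compared with each other over the 10 libraries, which differ in depth and in region markers. Of 9 pairs none passed after adjustment (permutation test, 100000 resamples, lowest adjusted p = 0.568 for Pearson's r and 0.789 for Spearman's rho). The highest r over all 10 was that of *Avp* with *Hcrt* (Pearson's r = 0.62, permutation p = 0.125, and Spearman's rho = 0.52, permutation p = 0.135), which became -0.18 without the 2 libraries farthest from the median of *Avp*. Without those 2 libraries *Avp* with *Pmch* went from 0.17 to 0.82, so which pair was highest depended on the libraries. *Oxt* and *Avp*, with their shared stretch, had a Pearson's r of 0.35 and a Spearman's rho of 0.41, and r was -0.03 without the 2 libraries farthest from the median of *Oxt*. With the mean of each group taken off, r was 0.54 for *Oxt* with *Avp*, 0.45 for *Avp* with *Hcrt* and 0.69 for *Avp* with *Pmch*, the highest of the 9 pairs on that scale. *Tph2* and *Slc6a4* had a Pearson's r of -0.22 and a Spearman's rho of 0.04.

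For the 9 genes with at least 10 counts in 5 or more libraries, the 3 genes of most similar pattern among all genes tested were listed by Pearson's r of log2 CPM over the 10 libraries. As the highest over all other genes tested, these r are a description, and they ranged from 0.90 to 0.97. *Cxcl14*, *Cpa6* and *Adamts19* were nearest to *Th* (r = 0.95, 0.92 and 0.91), *Asb7*, *T* and *Plb1* to *Slc6a3* (0.94, 0.93 and 0.92), and *Slc22a3*, *Triqk* and *Slc25a14* to *Hcrt* (0.94, 0.92 and 0.92). *Spg21*, *Scx* and *Atf2* were nearest to *Avp* (0.95, 0.94 and 0.93), *Gm26994*, *Rnf113a1* and *Gm13749* to *Oxt* (0.91, 0.90 and 0.90), and *Polr2i* and *Tmprss7* were among the nearest to *Pmch* (0.93 and 0.91). *Rin2*, *Mrpl55* and *Tspan12* were nearest to *Tph2* (0.94, 0.92 and 0.91), *Pcnt*, *Bloc1s4* and *Rflnb* to *Slc6a4* (0.93, 0.93 and 0.92), and *Bcl9l*, *Gm35161* and *Rpp25* to *Chat* (0.97, 0.93 and 0.91). None of the 10 genes was among the nearest of another.

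The precision of these values was set by the spread between libraries and, for the rare genes, by the number of reads. The biological coefficient of variation that edgeR fitted to each gene was 0.203 for *Th*, 0.230 for *Avp*, 0.279 for *Hcrt*, 0.346 for *Oxt* and 0.358 for *Slc6a3*. It was 0.478 for *Pmch*, 0.482 for *Tph2*, 0.634 for *Slc6a4*, 0.769 for *Slc18a3* and 0.846 for *Chat*. For *Hcrt* and *Avp* the coefficient of variation among the 5 controls (12.2% and 10.2%) was close to that of counting alone (8.96% and 6.48%), whereas for the 3 *Mphosph8*Δ/Δn libraries it was 33.9% and 36.6% against 11.0% and 6.91%. No control library stood apart from the other 4 in any of the 10 genes by Dixon's test at the 95% level.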

How the data were processed

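NeuN+ nuclei of adult mouse brains gave 10 libraries of single reads of 50 bases after poly(A) enrichment. Per the labels and the methods, the authors trimmed reads with Trim Galore 0.5.0, removed abundant sequences with Bowtie2 2.3.4.1, aligned to GRCm38 with STAR and obtained a total per Ensembl gene from featureCounts (Subread 1.6.2). What was deposited by the authors is raw counts, not normalized. Groups came from the labels.

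Here genes were filtered with filterByExpr (minimum count 10), which kept 18573, scaled by TMM and fitted in edgeR 4.0.16 (R 4.3.3) with a quasi-likelihood test on 3 groups, or 4 with the controls split by floxed line. P-values were adjusted by Benjamini-Hochberg over all genes tested. CPM and RPKM were computed from the counts and the union of exons of GENCODE M21. Python 3.11.15 with scipy 1.17.1 gave the correlations. DESeq2 1.42.0, limma-voom 3.58.1, other size factors, no filter, controls of the same line, each library left out and a replicate block were alternatives. The scripts were tested on simulated data.

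The 10 genes and the marker lists were chosen with earlier results of these data known. Named genes are the 10, in each list the genes called in a knockout (at most 3) and the most abundant gene, the 3 genes of most similar pattern, and others said to be named with their values known. *Prl*, *Cga*, *Pomc* and *Cbln3* are also of this last kind. For 2 genes that the rule names, the values are not reported here. Between replicates of a group the chi-square per degree of freedom was 9.55 to 38.4 over 14 pairs (genes of at least 50 counts), so libraries differ beyond counting error. Floors of 3 counts cover counting error only.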

Additional observations from a re-analysis of the deposited data

How the results depend on the processing

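The count of called genes among the 10 was 0 in all 4 comparisons with other size factors, without the filter, with DESeq2 and with each library left out in turn. It was also 0 in the 2 knockout comparisons with limma-voom, a replicate block, controls of the same line and without the 3 granule-rich libraries, alternatives not run for the other 2. DESeq2 gave no adjusted p to 8 of the 10 in *Morc2a*Δ/Δn (all but *Th* and *Avp*), which it therefore could not call. The 95% intervals of 7 of the 10 genes in each knockout reached a 2-fold difference, and *Chat* and *Slc18a3* were at 0 to 35 counts. Where leaving out libraries keeps 1 of a group, the lone library is assumed to vary like the other groups.

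The number of calls among all genes moved more. It was 18 in *Mphosph8*Δ/Δn against 87 without the filter, 43 with DESeq2, 10 with controls of the same floxed line and 1 without the 3 granule-rich libraries (an alternative chosen after seeing the data, which leaves *Mphosph8*Δ/Δn replicate 3 alone in its group), and 11 in *Morc2a*Δ/Δn against 98, 51, 10 and 11. Between the control lines it was 24 against 154 without the filter and 95 with DESeq2, and for the difference of the effects 0 against 85 and 45. With each library left out it was 6 to 21 in *Mphosph8*Δ/Δn, 3 to 26 in *Morc2a*Δ/Δn, 11 to 44 between the control lines and 0 to 7 for the difference of the effects. The *Mphosph8*Δ/Δn count was 9 without control replicate 1 and 7, 6 and 9 without *Mphosph8*Δ/Δn replicates 1, 2 and 3. The *Morc2a*Δ/Δn count was 7, 7, 20 and 26 without control replicates 1, 2, 4 and 5, 7, 6 and 7 without *Mphosph8*Δ/Δn replicates 1, 2 and 3, and 21 and 3 without *Morc2a*Δ/Δn replicates 1 and 2.

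Of 340 alternative values of the 20 log2 fold changes in the knockouts, 24 turned direction, all of differences that did not pass the test. In *Mphosph8*Δ/Δn these log2 fold changes were -0.024 for *Th* and 0.013 for *Slc6a3* with controls of the same line, and with replicate 3 alone in its group, without the 3 granule-rich libraries, -0.039 for *Th*, 0.40 for *Slc6a4*, -0.50 for *Tph2*, 0.35 for *Slc18a3* and 0.17 for *Avp*. In *Morc2a*Δ/Δn they were 0.071 for *Th* and -0.047 for *Oxt* with controls of the same line and -0.045 for *Pmch* without the granule-rich libraries. With single libraries left out the ranges in *Mphosph8*Δ/Δn were -0.55 to 0.20 for *Slc6a3*, -0.67 to 0.37 for *Slc6a4*, -0.16 to 0.42 for *Tph2* and -0.24 to 0.63 for *Oxt*, and in *Morc2a*Δ/Δn -0.78 to 0.086 for *Slc6a4* and -0.24 to 0.27 for *Pmch*. The cause was not tested.

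Same-numbered libraries of different groups had residual correlations of -0.0275 to 0.0428 (7 pairs), against -0.0553 to 0.0406 for the 24 other pairs, and the libraries were therefore not treated as pairs. A replicate block left 0 of the 10 genes called in both knockouts, turned *Slc6a3* in *Mphosph8*Δ/Δn to 0.051 and *Avp* in *Morc2a*Δ/Δn to 0.032 (log2), and moved the calls among all genes from 18 to 12 and from 11 to 46. Replicate numbers 4 and 5 occur only among the controls, so the block takes up these libraries, the only controls of the *Morc2a* line. The blocked values for *Morc2a*Δ/Δn thus rest on controls of the *Mphosph8* line and cannot tell the knockout from the floxed line.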
